A study of Sus scrofa with 67 samples.

Results

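Aminoacyl-tRNA synthetases were measured in the longissimus dorsi, a back muscle, of Swiss Large White pigs by RNA sequencing. The genes were chosen by symbol alone, as 1 letter for an amino acid followed by ARS, with or without a final 1, 2 or 3, together with FARSA, FARSB and EPRS1. The rule found 38 of the 18158 genes in the deposited table of read counts. Symbols ending in 2 are the mitochondrial forms (17 genes) and the others were counted as cytosolic (21 genes).

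A synthetase joins an amino acid to its tRNAs, as a rule a single kind, the step that makes the amino acid usable by the ribosome. Most animals carry separate nuclear genes for the enzymes of the cytosol and of the mitochondria, although GARS1 and KARS1 each encode both forms. A group of cytosolic synthetase genes is known from other mammals to be switched on by ATF4, the transcription factor that rises when amino acids are short or the endoplasmic reticulum is stressed. A list of 12 such genes (AARS1, CARS1, EPRS1, GARS1, IARS1, LARS1, MARS1, NARS1, SARS1, TARS1, WARS1 and YARS1) is called the ATF4-listed synthetases here. The other 9 cytosolic genes include FARSA, FARSB, HARS1, KARS1, QARS1, RARS1, VARS1 and TARS3. Both lists were drawn up with earlier results of these data known.

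The groups follow 2 feeding periods. For 4 weeks from weaning the feed had either a standard crude protein content (STD, n = 6 libraries) or a low one (LP, n = 6), set at 81% (total) and 79% (digestible) of the standard, and digestible amino acids met requirement in both feeds. During weeks 5 to 8 previously unrestricted pigs were kept on standard feed (STD-STD, n = 12), while restricted pigs were given standard feed alone (LP-STD, n = 12), or enriched in digestible lysine by 10% (LP-STD10, n = 12) or by 20% (LP-STD20, n = 12), always without limit on intake. For another 7 libraries, named BL, neither age nor diet is stated, and BL itself is left unexplained. Both females and castrated males were used, and which library came from which is not given in the labels.

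Total counts were 26680567 to 36935497 per library. The synthetases together took 0.167% ± 0.0143 (SD, n = 12) of counts in LP-STD10 and up to 0.238% ± 0.0520 (SD, n = 6) in STD. The muscle genes ACTA1 and CKM were detected at no less than 73978 and 24192 CPM (the count relative to the scaled library total) in every library. The second-period libraries are numbered in runs of 4 from 1 group, 3 runs a group. PDK4, a gene that rises with fasting, was at 485 CPM in run 1 of LP-STD, 624 CPM in run 1 and 371 CPM in run 2 of LP-STD10, and 67.9 CPM or less in the other runs of that period, so these runs stood apart. Levels below are CPM after TMM scaling over all 67 libraries. They are not corrected for gene length and are compared only within a gene.

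In the plot of group means the ATF4-listed synthetases had their highest means in STD or LP and, for 8 of 12, their lowest in BL. Among the 7 groups 27 of 38 synthetases differed (edgeR F test, adjusted p below 0.05), 19 of 21 cytosolic and 8 of 17 mitochondrial, where 44.8% of all genes tested differed. The mean over the cytosolic genes also spread more widely within groups, except in LP-STD10. The SD of a library's mean log2 CPM over them, pooled over the groups, was 0.27, against 0.15 over the mitochondrial genes. In LP-STD10 it was 0.096 over the cytosolic genes and 0.137 over the mitochondrial ones. By group this SD was 0.15 to 0.72 over the ATF4-listed genes. It was 0.11 to 0.19 over the other cytosolic genes and 0.10 to 0.24 over the mitochondrial ones. It is the spread of a mean and not that of single genes. In bulk muscle, fewer cells of a type and less RNA per cell cannot be told apart, and this holds for every difference below. The p-values measure the spread between libraries, which the design text describes as coming from separate pigs.

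**Figure D1:**
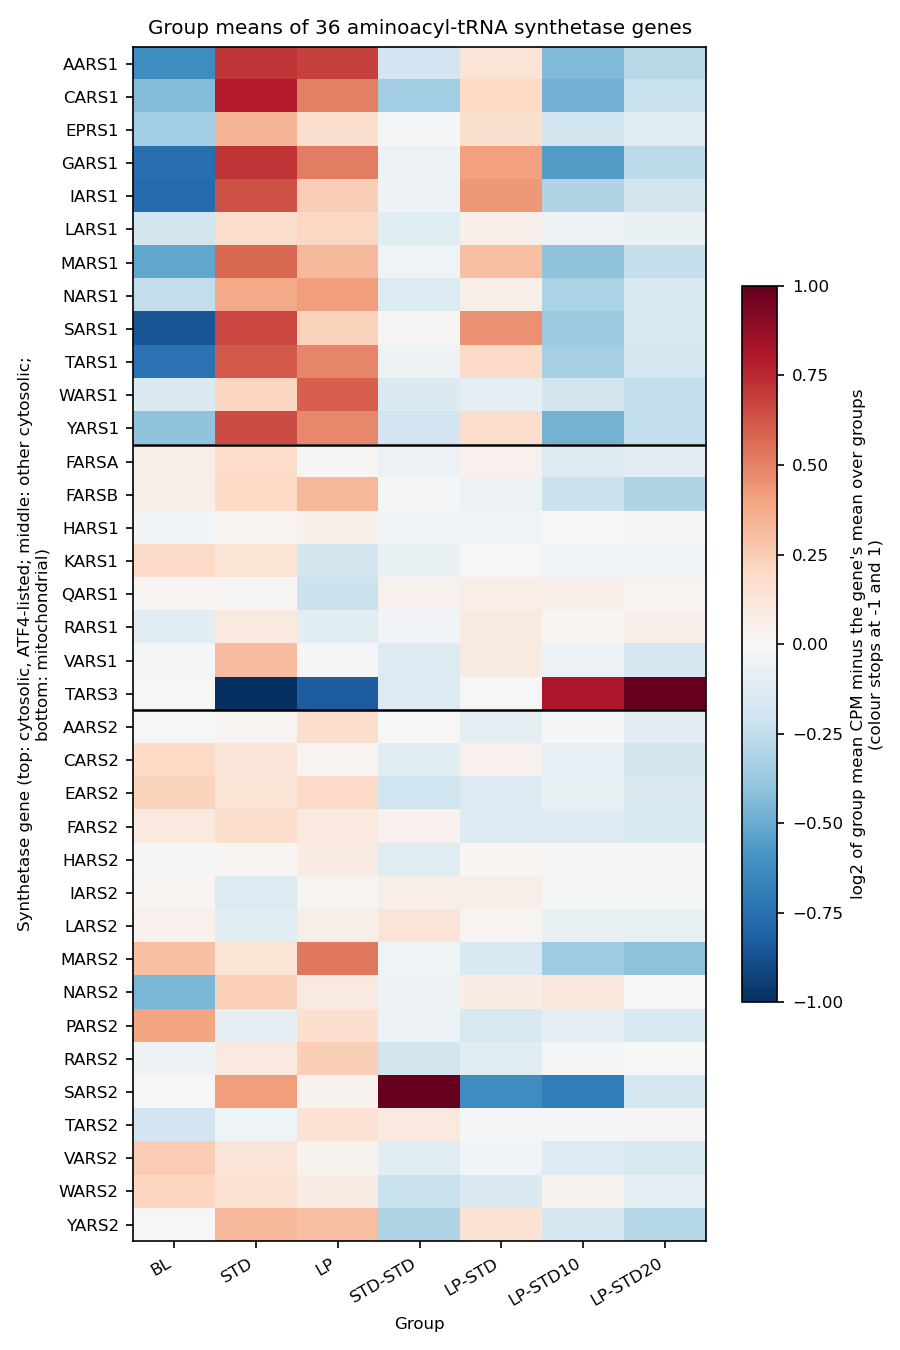
Each row is 1 of 36 synthetase genes and each column a group; colour is the log2 of the group mean CPM minus the gene's mean over the 7 groups, and stops at -1 and 1. Among the 12 ATF4-listed genes at the top the lowest mean is that of BL in 8, and the highest is that of STD or LP in all 12; TARS3 and SARS2, the only members with libraries at 0 counts, show the largest swings in the rows below.

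The question named in the study's title, the effect of more lysine after a period of low protein, was addressed first by LP-STD10 and LP-STD. With 10% more lysine 6 synthetases were lower, all cytosolic and all ATF4-listed, namely MARS1, GARS1, IARS1, SARS1, EPRS1 and YARS1. Their differences lay between 1.26-fold (EPRS1) and 1.95-fold (GARS1). Of all genes tested, 0.345% were lower at this threshold (edgeR, adjusted p below 0.05). The 17 mitochondrial synthetases had no call, and 2 of them had an unadjusted p below 0.05. The share of all genes with an unadjusted p below 0.05 is not given here or below. Counts at that level are therefore not read as a result about the synthetases.

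IARS1, which charges isoleucine tRNA, ranged from 112 to 275 CPM in LP-STD with a median of 200.3. In LP-STD10 it ranged from 91.6 to 142 CPM with a median of 115.7. Every LP-STD10 library lay below the LP-STD median, although the ranges overlapped. The difference was -0.73 ± 0.16 on the log2 scale (SE; edgeR adjusted p = 0.0181).

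SARS1, which charges serine tRNA and also the tRNA of selenocysteine, ranged from 110.2 to 364 CPM in LP-STD with a median of 233. In LP-STD10 its range was 92.4 to 168 CPM and its median 141. It was lower by 1.76-fold, -0.82 ± 0.18 on the log2 scale (edgeR adjusted p = 0.0186). All 12 LP-STD10 libraries were under the LP-STD median and the groups overlapped.

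GARS1, the glycine enzyme, ranged from 54.3 to 197 CPM in LP-STD with a median of 109. Its range in LP-STD10 was 45.9 to 75.6 CPM and its median 64.3. The log2 difference was -0.96 ± 0.21 (edgeR adjusted p = 0.0153). Again the 12 LP-STD10 libraries lay under the other group's median, and the lowest LP-STD library fell inside the LP-STD10 range.

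MARS1, the methionine enzyme, ranged from 58.0 to 158 CPM in LP-STD with a median of 98.8, and from 49.2 to 76.6 CPM in LP-STD10 with a median of 68.8. It differed by -0.70 ± 0.15 on the log2 scale (edgeR adjusted p = 0.0130). The gene lies on chromosome 5 at 22752405 to 22785509 (Sscrofa11.1, RefSeq) and overlaps DDIT3 and ARHGAP9. The strand setting of the counting is not given in the sources used here, so reads of MARS1 and DDIT3, itself a gene of the amino acid response, may not be fully separated.

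EPRS1, a single protein that charges both glutamate and proline tRNAs, had a smaller difference of -0.34 ± 0.08 on the log2 scale (edgeR adjusted p = 0.0282). Its mean was 88.3 ± 12.9 CPM (SD, n = 12) in LP-STD and 69.6 ± 5.28 in LP-STD10. IARS2 lies on the same chromosome, 10, at 9685641 to 9739816, near EPRS1 at 9579301 to 9648416. It had 95.2 ± 7.08 CPM in LP-STD and 90.7 ± 9.78 in LP-STD10 and did not pass. YARS1, the tyrosine enzyme, had 49.9 ± 14.0 CPM in LP-STD and 31.8 ± 3.42 in LP-STD10, a difference of -0.65 ± 0.15 (edgeR adjusted p = 0.0311).

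The 12 ATF4-listed synthetases all had a negative difference, with a median of -0.61 on the log2 scale. The median of the other 9 cytosolic genes was -0.06, that of the mitochondrial genes -0.00 and that of all genes 0.01. Of the 6 ATF4-listed genes without a call, AARS1 (-0.58), CARS1 (-0.67), TARS1 (-0.52) and NARS1 (-0.37) had an unadjusted p below 0.05 and LARS1 (-0.10) and WARS1 (-0.08) did not. In 15 of the 16 pairings of a cytosolic gene with the mitochondrial gene for the same amino acid the cytosolic difference was the lower. HARS1 and HARS2 were the exception, at 0.04 and -0.00.

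**Figure D2:**
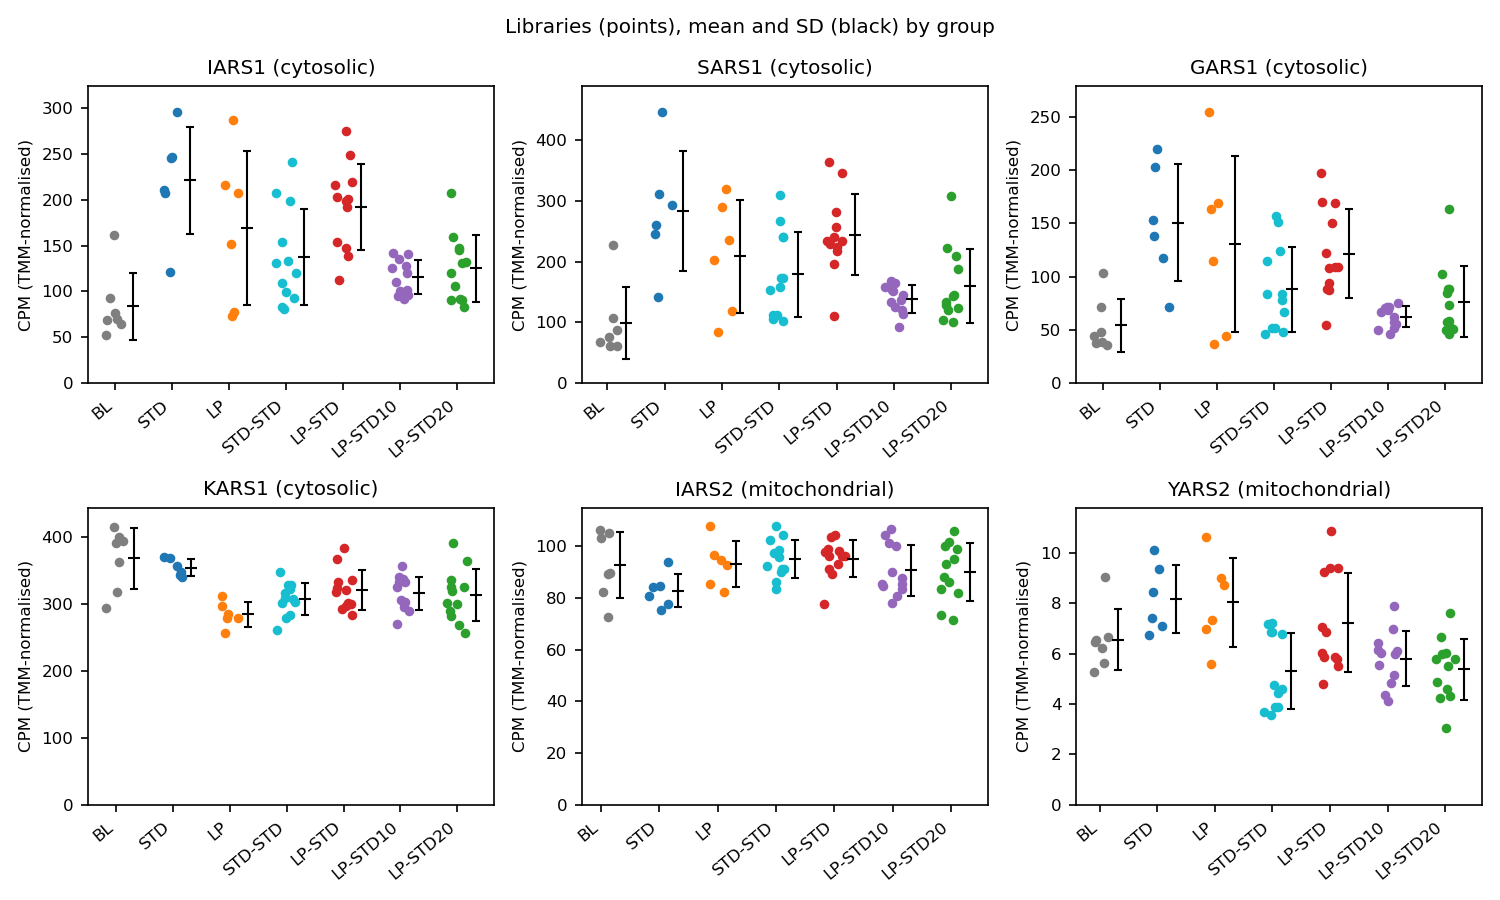
Points are libraries by group, in CPM after TMM scaling, with the mean and SD in black, for 4 cytosolic genes and 2 mitochondrial ones. IARS1, SARS1 and GARS1 are low in BL and in LP-STD10 and spread widely in STD, LP, STD-STD and LP-STD. Their LP-STD20 medians (126, 138 and 65.8 CPM) are near those of LP-STD10 (116, 141 and 64.3 CPM), with a wider spread. KARS1 and IARS2 vary far less, and LP lies below STD in KARS1.

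The call did not hold under every treatment of the runs. With the runs as correlated units (limma voom), with counts summed over runs, or with all 67 libraries in the fit, 0 of the 6 passed. Leaving out run 1 of LP-STD, run 1 of LP-STD10 or run 2 of LP-STD10 also left 0, and leaving out run 3 of LP-STD10 left 3. Over 22 alternatives the adjusted p (edgeR, limma or DESeq2, as run) lay between 0.000973 and 0.142 for MARS1 and between 0.00158 and 0.195 for IARS1, and no difference changed sign.

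Levels by run describe the same libraries and are not a further test. IARS1 run means were 228, 163 and 186 CPM in LP-STD and 127, 111 and 110.2 CPM in LP-STD10, so the lowest run of the first group was above the highest of the second. For SARS1 they were 282, 198 and 253 CPM against 144, 137 and 135 CPM. All LP-STD10 run means were below all LP-STD run means in 11 of 21 cytosolic genes, 10 of 12 ATF4-listed genes and 0 of 17 mitochondrial genes, where 5.09% of all genes showed this. Run 1 of LP-STD, which was high in PDK4, had the highest LP-STD mean in all 6 called genes. Within LP-STD10, run 1, also high in PDK4, had the highest mean in IARS1, SARS1, MARS1, GARS1 and YARS1, and run 3, low in PDK4, had it in EPRS1. Run 2, high in PDK4 as well, had the lowest mean in GARS1 (59.7 CPM), MARS1 (61.8), EPRS1 (68.4) and YARS1 (30.7), and run 3 had it in IARS1 and SARS1. The part of what PDK4 marks in the difference was not tested.

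**Figure D3:**
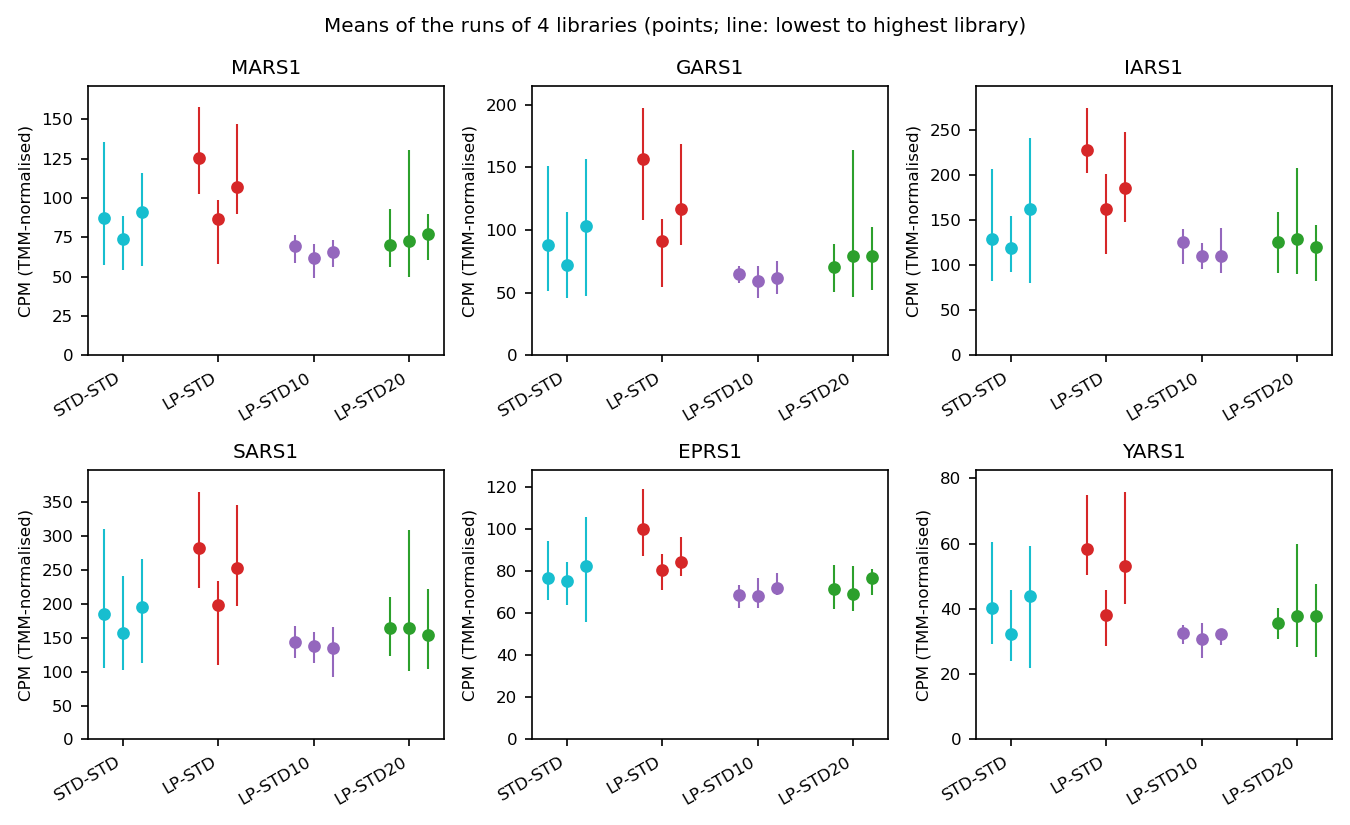
Points are means of runs of 4 libraries and lines run from the lowest to the highest library of the run, in CPM, for the 6 genes called between LP-STD10 and LP-STD. The LP-STD10 runs lie close together and under the LP-STD runs, with run 1 of LP-STD the highest.

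Markers of macrophages were higher in LP-STD10 on average. All 7 of 7 had a positive difference without a call, and their summed level was 60.5 to 339 CPM (median 117) in LP-STD10 and 52.5 to 205 CPM (median 80.4) in LP-STD. None of the 7 was at 0, and their part in the synthetase difference was not tested.

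With 20% more lysine no synthetase was called against LP-STD (edgeR), where 0.046% of all genes were. An unadjusted p below 0.05, a level at which the share of all genes is not given, was found for 17 of 38, 15 of them cytosolic. DESeq2 called 3 and limma voom with quality weights 6, and leaving out run 2 of LP-STD gave 10. IARS1 (-0.61 ± 0.16), CARS2 (-0.22 ± 0.06) and MARS1 (-0.53 ± 0.15) had the lowest p, with an edgeR adjusted p of 0.0966, 0.0966 and 0.106. The ATF4-listed genes had a median of -0.41 and all 12 were negative. This comparison shares its LP-STD libraries with the one above. The macrophage markers were positive here too (7 of 7, median 0.81, 0 called; 54.4 to 267 CPM summed in LP-STD20), and their part was not tested.

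Between the lysine doses, LP-STD20 and LP-STD10, no synthetase and 0% of all genes passed in edgeR, and DESeq2 and limma voom called no synthetase either. No member had an unadjusted p below 0.05. CARS2 had the lowest unadjusted p (-0.10 ± 0.06, edgeR adjusted p = 0.903). GARS1 was at 62.2 ± 9.89 CPM with 10% and 76.3 ± 33.3 CPM with 20% more lysine (SD, n = 12), a log2 difference of 0.30 ± 0.20, and AARS1 at 96.3 ± 18.7 and 108 ± 35.5 CPM.

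Genes that work with the synthetases were followed as lists. Of 3 scaffold genes of the complex that holds several cytosolic synthetases together (AIMP1, AIMP2 and EEF1E1), 0 were called in either lysine comparison. Of 12 partners of tRNA charging 1 was lower with 10% more lysine, XPOT, which exports tRNA from the nucleus (-0.53 ± 0.12, edgeR adjusted p = 0.0261). Of 24 measured genes of the amino acid response 10 were lower with 10% more lysine (0.345% of all genes were), with a median of -0.94, and 0 were called with 20%, where 13 had an unadjusted p under 0.05 and the median was -0.64. The 10 became 1 with the runs as correlated units, 0 with counts summed over runs and 4 with all 67 libraries in the fit. They became 1 without run 1 of LP-STD and 4 without run 1 of LP-STD10, and XPOT did not pass in any of these 5, nor without run 2 of LP-STD10. The 0 with 20% became 8 lower with the replicate block, 9 with limma voom, 8 with DESeq2 and 10 without run 2 of LP-STD. Among the 10 lower with 10% more lysine were PSAT1 (-2.52 ± 0.46) and PSPH (-1.26 ± 0.24) of serine synthesis. SLC7A5 (-1.24 ± 0.23), a carrier of large neutral amino acids, and SHMT2 (-0.96 ± 0.18), a mitochondrial enzyme of one-carbon metabolism, were also among these 10. Of 5 measured cytosolic and 4 mitochondrial elongation factors 0 were called in either.

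Earlier restriction was compared with none on the same later diet in LP-STD and STD-STD. No synthetase was called, nor was any other gene (0% in edgeR). Of the synthetases 14 had an unadjusted p below 0.05, of which 11 were cytosolic. DESeq2 and limma voom with quality weights called none of them, and leaving out run 2 of LP-STD gave calls for CARS1 and YARS2. YARS2 (0.44 ± 0.14), IARS1 (0.48 ± 0.16) and CARS1 (0.54 ± 0.18) had the lowest p (edgeR adjusted p = 0.315, 0.315 and 0.320). All 12 ATF4-listed genes were positive, with a median of 0.33.

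YARS2, which charges tyrosine tRNA in mitochondria, ranged from 3.55 to 7.23 CPM in STD-STD (median 4.68) and from 4.81 to 10.9 CPM in LP-STD (median 6.46). Its LP-STD run means were 9.72, 5.54 and 6.42 CPM, so run 1 carried the higher values. VARS1, the valine enzyme, had run means of 52.2, 37.8 and 39.5 CPM there. These were the 2 synthetases that differed between the runs within groups (edgeR, adjusted p = 0.0308 and 0.0266), where 5.68% of all genes did.

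Against pigs that were never restricted, no synthetase passed in either lysine group. For LP-STD10 and STD-STD 0.399% of all genes and for LP-STD20 and STD-STD 0% passed in edgeR, and DESeq2 and limma voom called no synthetase in either. An unadjusted p below 0.05 was found for 9 synthetases in the first and 4 in the second. LARS2, the leucine enzyme of mitochondria, had the lowest p in the first (-0.21 ± 0.08, edgeR adjusted p = 0.219) and SARS2 the next (-1.71 ± 0.69, edgeR adjusted p = 0.253), a serine enzyme of mitochondria with 0 counts in 13 libraries. MARS1 (-0.36 ± 0.15) and GARS1 (-0.50 ± 0.20) came after them. In the second it was TARS3 (1.36 ± 0.44, edgeR adjusted p = 0.349), a cytosolic threonine enzyme detected at a median of 8 counts per library and at 0 in 7 libraries. TARS3 was at 0.247 ± 0.169 CPM in STD-STD and 0.642 ± 0.666 CPM in LP-STD20.

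**Figure D4:**
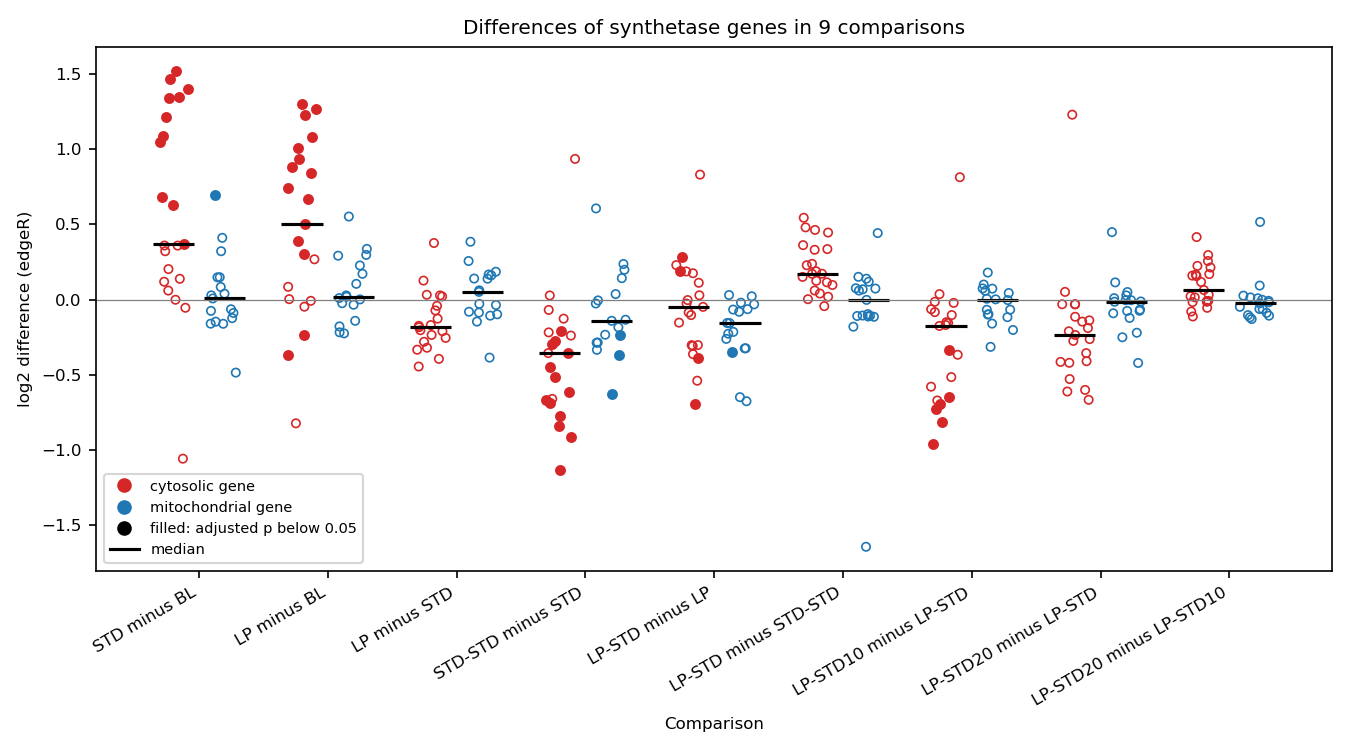
Each point is the log2 difference of a synthetase in the comparison named on the axis, red for cytosolic and blue for mitochondrial genes, filled where the edgeR adjusted p was below 0.05, with a bar at the median. Filled red points lie above 0 for STD against BL and, but for KARS1 and QARS1, for LP against BL. They lie below 0 for LP-STD10 against LP-STD and STD-STD against STD, while mitochondrial medians stay between -0.16 and 0.05.

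Protein restriction itself was compared in LP and STD. No synthetase passed (edgeR, 37 tested, 0% of all genes), 4 had an unadjusted p below 0.05, limma voom called none and DESeq2 called KARS1 and QARS1. KARS1, the lysine enzyme, ranged from 340.1 to 370 CPM in STD (median 352) and from 256 to 312 CPM in LP (median 282). The ranges did not overlap, and the difference was -0.32 ± 0.07 on the log2 scale (edgeR adjusted p = 0.187).

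QARS1, the glutamine enzyme, ranged from 91.4 to 103 CPM in STD and from 75.6 to 87.9 CPM in LP, again without overlap (-0.24 ± 0.07, edgeR adjusted p = 0.288). Every LP library was below every STD library in 0.564% of all genes. KARS1 and QARS1, like VARS1 (-0.33 ± 0.13) and RARS1 (-0.20 ± 0.08) with the next lowest p, are not ATF4-listed. The ATF4-listed genes spread widely in both groups. AARS1 was at 215 ± 81.2 CPM in STD and 210 ± 130.1 CPM in LP (SD, n = 6), and their median difference was -0.18, as it was for all cytosolic genes. The median of the mitochondrial genes was 0.05.

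Between the periods on the standard diet, 16 synthetases were lower in STD-STD than in STD, 13 cytosolic and 3 mitochondrial, and none was higher. All STD libraries are numbered before the STD-STD ones, so age and library numbering cannot be told apart here. Of all genes 7.89% were lower in this comparison (edgeR, adjusted p below 0.05). The 10 ATF4-listed genes among them were CARS1, YARS1, AARS1, NARS1, EPRS1, IARS1, TARS1, MARS1, GARS1 and LARS1. KARS1 and VARS1 were among the other cytosolic ones, and YARS2, CARS2 and WARS2 the mitochondrial ones. Of 27 alternatives GARS1 passed in 11, LARS1 in 10 and WARS2 in 10, while CARS1, YARS1 and YARS2 passed in all 27.

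CARS1, which charges cysteine tRNA, had the largest difference of these. It ranged from 27.1 to 66.9 CPM in STD (median 48.1) and from 11.8 to 38.8 CPM in STD-STD (median 20.5), 2.20-fold lower (-1.13 ± 0.26 on the log2 scale, edgeR adjusted p = 0.00120). YARS2 fell from 8.19 ± 1.35 CPM (SD, n = 6) to 5.31 ± 1.52 CPM (SD, n = 12), by 0.63 ± 0.16 on the log2 scale (edgeR adjusted p = 0.00477). All 12 STD-STD libraries lay below the STD median in both genes, and the ranges overlapped. AARS1, the alanine enzyme, differed by -0.91 ± 0.25 and YARS1 by -0.84 ± 0.22 (edgeR adjusted p = 0.00740 and 0.00643).

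The ATF4-listed median was -0.66, the mitochondrial median -0.14 and the median of all genes -0.01. Of the partners of tRNA charging 3 of 12 were lower (DTD1, AARSD1 and XPOT), and of the amino acid response 11 of 24. The macrophage markers were positive without a call (7 of 7; 60.6 to 113 CPM summed in STD and 55.4 to 239 in STD-STD, none at 0). Markers of fibroblasts were negative without a call (6 of 6 negative; 5081 to 7787 CPM summed in STD and 3197 to 7656 in STD-STD, none at 0), and the part of either was not tested. The count was 4 without STD replicate 2, 7 without STD replicate 5 and 8 with the runs as correlated units.

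After restriction, in LP-STD and LP, 5 synthetases differed, where 17.8% of all genes did. LP-STD and LP differ in feed, age and library numbering, and these cannot be told apart. QARS1 (0.28 ± 0.07) and RARS1 (0.19 ± 0.06), the arginine enzyme, were higher in LP-STD. WARS1 (-0.69 ± 0.18), the tryptophan enzyme, FARSB (-0.39 ± 0.12), a subunit of the phenylalanine enzyme, and RARS2 (-0.35 ± 0.11), the arginine enzyme of mitochondria, were lower. Their edgeR adjusted p was 0.00210, 0.0277, 0.00370, 0.0185 and 0.0169.

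QARS1 ranged from 92.6 to 111 CPM in LP-STD and from 75.6 to 87.9 CPM in LP, with no overlap. The share of all genes without overlap was not taken for this comparison, in which 17.8% of all genes were called. WARS1 ranged from 14.9 to 33.4 CPM in LP-STD (median 18.5) and from 19.7 to 59.0 CPM in LP (median 26.8), with overlap. The count was 2 without LP replicate 6. All 6 fibroblast markers were lower in LP-STD (6415 to 11607 CPM summed in LP and 3102 to 7069 in LP-STD, none at 0), and their part was not tested.

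Whether the change between periods depended on the first diet was tested as an interaction. No synthetase passed in edgeR, where 0.163% of all genes did, 10 had an unadjusted p below 0.05 and DESeq2 and limma voom called KARS1 and RARS1. KARS1 came closest (0.38 ± 0.10, edgeR adjusted p = 0.0989). It went from 354 ± 12.8 to 307 ± 24.1 CPM on the standard diet and from 285 ± 18.9 to 321 ± 30.1 CPM after the low protein diet. KARS1 passed when the fit held just the 4 groups compared.

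The libraries labelled BL had the lowest group mean in 8 of the 12 ATF4-listed synthetases. Against BL, 12 synthetases were higher in STD, 11 cytosolic and NARS2, the asparagine enzyme of mitochondria, where 2.62% of all genes were higher (edgeR, adjusted p below 0.05). The 11 included 10 ATF4-listed genes. The median was 1.15 for the ATF4-listed genes, 0.12 for the other cytosolic genes and 0.01 for the mitochondrial ones. PARS2, the proline enzyme of mitochondria, went the other way without a call, with 2.91 to 4.52 CPM in STD and 4.85 to 6.43 CPM in BL (-0.49 ± 0.16, edgeR adjusted p = 0.0593), though limma voom and DESeq2 called it. It was the only synthetase whose ranges did not overlap here, and every STD library was below every BL library in 0.703% of all genes.

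SARS1 ranged from 61.6 to 228 CPM in BL (median 76.5) and from 142 to 445 CPM in STD (median 277). It was 2.87-fold higher in STD (1.52 ± 0.28 on the log2 scale, edgeR adjusted p = 0.000329). GARS1 rose by 1.47 ± 0.32, from 54.3 ± 25.0 CPM (SD, n = 7) to 150 ± 54.9 CPM (SD, n = 6; edgeR adjusted p = 0.00247). TARS1, the threonine enzyme, was at 36.2 ± 15.4 CPM in BL and 92.1 ± 32.6 CPM in STD (1.35 ± 0.25). In SARS1 BL replicate 6 was the only BL library inside the STD range, and in GARS1 BL replicates 6 and 7 were (104 and 71.9 CPM).

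NARS2 was at 13.1 ± 4.04 CPM in BL and 21.2 ± 6.87 CPM in STD (0.70 ± 0.20, edgeR adjusted p = 0.0266). With only BL and STD in the fit 4 of the 12 passed, GARS1, IARS1, SARS1 and TARS1. ASNS, the asparagine synthetase gene and a usual readout of the amino acid response, was at 31.7 ± 25.8 CPM in BL and 222 ± 124 CPM in STD (2.81 ± 0.49). Of the amino acid response 18 of 24 were higher and 1 lower, and with only BL and STD in the fit 6 were higher. Summed Schwann cell markers were at 106 to 277 CPM in BL (median 220), 112 to 226 CPM in STD (median 132) and 109 to 145 CPM in LP (median 134), with 3 of 3 tested negative and 0 called for STD and for LP. Macrophage markers had a median of 53.0 CPM in BL (24.0 to 186), 90.0 in STD (60.6 to 113) and 96.8 in LP (58.0 to 110.5), with 0 called. Of 6 lymphocyte markers 1 was called higher in STD and 2 in LP, and of 6 fibroblast markers 1 in each, with summed levels of 1539 to 10640 CPM in BL, 5081 to 7787 in STD and 6415 to 11607 in LP. Of 7 muscle fibre markers 1 was called higher in STD and 0 in LP. The part of these markers in the differences from BL was not tested.

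Against BL, LP had 13 synthetases higher and 2 lower, where 2.44% of all genes were higher and 4.02% lower. All 12 ATF4-listed genes were higher, with an ATF4-listed median of 0.91. KARS1 (-0.37 ± 0.08) and QARS1 (-0.23 ± 0.08) were lower (edgeR adjusted p = 0.00194 and 0.0468). AARS1 had the largest rise, from 85.0 ± 41.3 CPM (SD, n = 7) to 210 ± 130.1 CPM (SD, n = 6), 1.30 ± 0.29 on the log2 scale (edgeR adjusted p = 0.00262).

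WARS1, which did not pass for STD and BL, was higher in LP by 0.74 ± 0.20, with 18.9 ± 5.89 CPM in BL and 31.6 ± 14.9 CPM in LP. The LP and BL counts rested on single LP libraries, since 3 calls were left on dropping LP replicate 6, 8 on dropping its replicate 4 and 9 on dropping its replicate 3, and with only the 2 groups in the fit 0 passed. STD, LP and BL comparisons share their BL libraries. No mitochondrial synthetase was called for LP and BL, where 5 of 17 had an unadjusted p below 0.05.

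The relation to ASNS was taken over the 48 second-period libraries after subtracting the group means, so that group differences do not enter. Of 13031 genes 2.96% had a positive correlation past an adjusted permutation p of 0.05 (100000 permutations within groups, adjusted over all genes). Of the cytosolic synthetases 12 of 21 passed, all positive, and of the mitochondrial 1 of 17, YARS2. Of the ATF4-listed genes 11 of 12 passed, all but NARS1 (r = 0.35, adjusted permutation p = 0.128). The libraries of a run share that run, so the points are not fully separate.

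GARS1 had the highest correlation (r = 0.77, Spearman rho = 0.73, adjusted permutation p = 0.00271 and 0.00343, raw permutation p = 1e-05, the smallest they can give). SARS1 followed with r = 0.74 (rho = 0.66), then AARS1 with 0.69, MARS1 and IARS1 with 0.68 and YARS1 with 0.68. IARS2, the mitochondrial partner of IARS1, had r = 0.21 (adjusted permutation p = 0.415), QARS1 0.20 and HARS2 0.10. WARS1 and YARS2 had an adjusted permutation p of rho above 0.05 (0.0637 and 0.0726).

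The relation was not alike in the groups. For GARS1 r was 0.91 in STD-STD, 0.89 in LP-STD, 0.34 in LP-STD10 and 0.75 in LP-STD20 (n = 12 each). For CARS1 it was 0.81, 0.84, -0.41 and 0.76, and for TARS1 0.78, 0.73, -0.41 and 0.82. For IARS2 it was 0.39, 0.80, 0.18 and -0.27, so the low overall value held both a high and a negative group. In CPM, ASNS spread less in LP-STD10 (35.7 to 142 CPM, SD 34.0) than in LP-STD (50.6 to 376 CPM, SD 95.0). The correlations use log2 CPM, where ASNS minus its group mean ran from -1.10 to 0.89 in LP-STD10. It ran from -0.82 to 1.19 in STD-STD and from -2.00 to 0.89 in LP-STD. The difference of the correlations was not tested. Without the 2 libraries farthest from the median of ASNS r for GARS1 was 0.69 and 11 members passed, and 11 passed with the run means removed. All 11 were cytosolic in both settings. YARS2 (adjusted permutation p = 0.181 and 0.245) and LARS1 (0.139 and 0.138) did not pass in either.

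**Figure D5:**
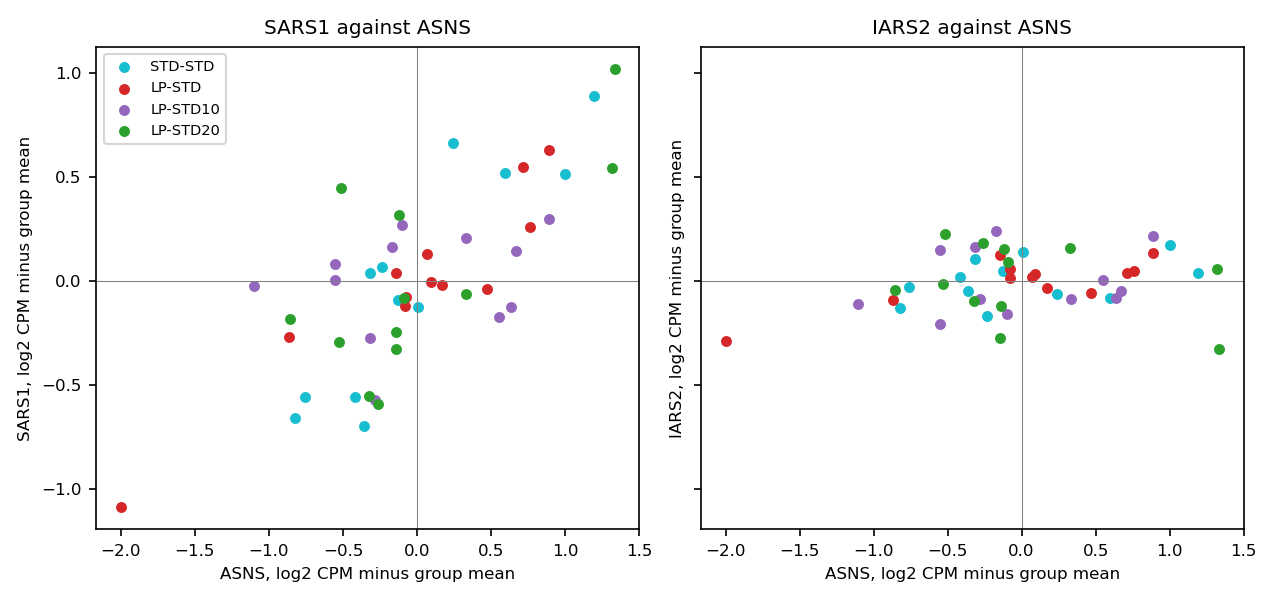
Points are the 48 second-period libraries, with ASNS on the x axis and SARS1 (left) or IARS2 (right) on the y axis, each as log2 CPM minus its group mean. SARS1 rises with ASNS (r = 0.74) over all libraries, with r = 0.25 among the LP-STD10 points, and IARS2 has r = 0.21 over all libraries.

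The mitochondrial synthetases as a set had small median differences throughout. Their lowest and highest medians in the 12 comparisons were those of LP-STD and LP (-0.16) and of LP and STD (0.05), where the cytosolic medians ran from -0.36 to 0.50. For the cytosolic genes outside the ATF4 list, medians are given above only for LP-STD10 and LP-STD and for STD and BL, where they were small. They are not given for the other comparisons, so no likeness to the mitochondrial set is read from them. Single mitochondrial genes moved further in both directions. Examples are NARS2 (0.70, STD and BL), YARS2 (-0.63, STD-STD and STD) and MARS2 (-0.68, LP-STD and LP). The 8 that differed among the 7 groups were CARS2, YARS2, VARS2, EARS2, PARS2, MARS2, RARS2 and WARS2. The 11 synthetases without a difference at this threshold included FARSA and HARS1 of the cytosol and AARS2, FARS2, HARS2, IARS2, LARS2, NARS2, SARS2 and TARS2. SARS2 was at 2.04 ± 1.39 CPM in STD-STD and 0.650 ± 0.985 CPM in LP-STD.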

How the data were processed

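The authors deposited a table of raw read counts per gene symbol for 67 libraries. Sscrofa11.1 and DESeq2 are the build and tool named, per the submitters' processing notes; aligner, counter and strand setting: not given in the sources used here. Groups came from library titles. The highest correlation of 2 libraries was 0.992 (log2 of CPM plus 0.5), and none was counted as 1 sample.

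The test was edgeR's robust quasi-likelihood F test (version 4.0.16, under R 4.3.3), after filterByExpr and TMM, and p was adjusted over all genes by Benjamini-Hochberg and read at 0.05. The fit for LP and STD held 12 libraries (12584 genes), the second period 48 (13032 genes) and other comparisons 67 (13517 genes). SE is the size of the log2 difference over the root of F. Relations to ASNS used log2 CPM with a prior count of 2; their p was planned to be adjusted over the members and is adjusted over all genes here.

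Members and lists were chosen with earlier results of these data known. Any member could be named, and up to 4 genes of a list past the threshold. Alternatives were RLE factors, other filters, limma voom 3.58.1 with quality weights, DESeq2 1.42.0, replicate blocks, blocks of 16 libraries, correlated or summed runs, other sets of libraries and leaving out runs or libraries. The tests were checked on simulated counts. RefSeq coordinates matched 36 of 38 members, 8 of which overlap another gene. Of the members, 2 entered every fit and count but are not reported here. Figures used matplotlib.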

Additional observations from a re-analysis of the deposited data

Results flagged for a closer look

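In groups of 6 or 7 libraries, 1 library stood apart from the rest of its group in 9 of 108 tested groups of a synthetase. Chance flags about 1 in 20 groups in general, a rate not checked here on CPM values, and the genes of a library are not independent. All 9 lay on the high side, and their number is not read against that rate. BL replicate 6 was high in SARS1 (227.9 CPM, next 107.5), IARS1 (161.7, next 93.28), MARS1 (114.2, next 63.99) and EPRS1 (91.56, next 66.16), all ATF4-listed genes. BL replicate 4 was high in LARS1 (38.57), WARS1 (30.64) and YARS2 (9.051). STD replicate 2 was high in WARS1 (42.47, next 23.42) and HARS1 (17.07, next 14.29).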

How the results depend on the processing

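The 19 to 27 alternatives of each comparison changed the sign of no synthetase whose alternatives were followed. Counts of called synthetases moved over 1.5 times as follows. For LP against STD, DESeq2 gave 2 instead of 0, and every fit without a library gave 0. For LP-STD10 against LP-STD, called in 6, DESeq2 gave 10, and correlated runs, summed runs and all 67 libraries gave 0, with 0 to 9 across fits without a run. For LP-STD20 against LP-STD, called in 0, voom gave 6 and DESeq2 3, with 0 to 10 without a run. For LP-STD against STD-STD the range without a run was 0 to 2. STD-STD against STD, called in 16, gave 8 with correlated runs and 4 to 19 without a library. LP-STD against LP, called in 5, gave 9 with voom and 2 to 7 without a library. The interaction gave 2 with voom, 2 with DESeq2 and 1 with only the compared groups. STD against BL, called in 12, gave 4 with only the compared groups and 10 to 14 without a library, and LP against BL, called in 15, gave 0 and 3 to 15. The cause was not tested, except that fits of fewer libraries hold fewer samples.

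The deviations of libraries that share a replicate number had correlations of -0.31 to 0.31. Between LP-STD and STD-STD 6 of 12 were above 0.1, and in the other comparisons 0 to 4 were. In the second period the numbers also follow the runs. Correlations of this size cannot tell whether the numbers pair the libraries. With the replicate number as a block, LP-STD10 against LP-STD gave 10 calls and LP-STD20 against LP-STD 3; the block gave 11 for STD-STD against STD. RLE scaling shifted the median of all genes by at most 0.02 on the log2 scale. Counts of TARS3 and SARS2 are too low for small differences to be detectable at this depth. The relation to ASNS, called in 13, gave 11 with run means removed and 11 without the 2 libraries farthest from the median.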
